A study of Mus musculus with 6 samples.

Results

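The antioxidant defence genes examined here were 10 named genes of the 15663 listed in each table. They are Nfe2l2, which encodes the transcription factor Nrf2, the genes Nqo1, Hmox1, Gclc, Gclm, Srxn1, Txnrd1 and Slc7a11, which are widely used as readouts of Nrf2 activity, and the peroxide and superoxide enzymes Cat and Sod2. They were chosen by symbol and matched by Ensembl identifier. The rule used no measured value, but earlier results of these data were known when the genes were chosen. All 10 passed the filter on low counts, as did 13454 genes in all.

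Nrf2 is held at a low level by Keap1, which presents it for degradation. Oxidants and electrophiles modify cysteines of Keap1, Nrf2 then accumulates, pairs with a small Maf protein and binds antioxidant response elements near its target genes. Those targets make glutathione, reduce oxidised thioredoxin and peroxiredoxin, detoxify quinones and break down heme. The retinal pigment epithelium (RPE) lies under the photoreceptors, takes up their shed outer segments and carries a high oxidative load, and the choroid is the vascular bed beneath it.

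RNA-seq was performed on total RNA of the RPE-choroid of 3 control mice and 3 mice with subretinal fibrosis (SRF), all male C57BL/6 (C57BL/6J in the study's methods) and 8 to 10 weeks old. SRF eyes received 4 laser burns around the optic nerve head and after 10 days each lesion was burned again, with RNA extracted a further 20 days on, whereas control mice were healthy and untreated. The whole RPE-choroid was taken, so each SRF library also holds tissue outside the burns. The comparison asks which antioxidant genes differ in fibrotic eyes.

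The 6 libraries held 13667310 to 24356023 counts. Every listed gene had a count of at least 1 in each library, so no marker could be at 0. Best1, a chloride channel used as an RPE marker, was at only 2.77 to 4.55 CPM. Control mouse 1 and SRF mouse 3 stood apart in retinal RNA: their mean log2 CPM over 15 rod and cone genes was 8.27 and 8.29, against 4.31 to 5.54 in the other 4 libraries. Lens genes set other libraries apart: averaged over 5 crystallin and lens fibre genes, control mouse 2 had a log2 CPM of 3.43 and control mouse 3 of 2.17, against -0.88 to 0.86 in the other 4 libraries. The members' values without these libraries are given with the marker genes.

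Levels below are counts scaled to the library total with TMM factors, as CPM, and differences are log2 fold changes of SRF against control from edgeR, with their standard error (SE) and 95% interval. A difference counted as called where the adjusted p was under 0.05 and the log2 fold change at least 0.5 in size. Unadjusted p-values come from the quasi-likelihood fit of edgeR, and the adjusted ones from the method of Benjamini and Hochberg across the 13454 tested genes.

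Promoter sequence is shown first for the genes with the largest difference in each direction, Srxn1 and Slc7a11. Nqo1, the commonest readout of Nrf2, is shown as a contrast without a match in the stretch searched. The antioxidant response element was searched as TGACNNNGC and as TGAGNNNGC on both strands, from 250 bases before to 50 after the start, in RefSeq promoters of GRCm38.p6. Of the 10 genes, 8 had an entry, with 10 promoters among them. Hmox1 and Gclc had no entry and were not searched. A promoter of 5 genes held a match (Nfe2l2, Gclm, Srxn1, Txnrd1 and Slc7a11). Txnrd1 had 3 promoters, and only promoter 2 matched. The shares that follow count promoters, so the count of genes is not like for like with them. Over all 32841 promoters, 12.4% held the first form, 17.65% the second and 27.79% either one. The stretches printed run from 250 to 11 bases before the start, 5′ to 3′ on the gene's strand, at chr2:152105274-152105513 (plus strand) for Srxn1, chr3:50443624-50443863 (minus strand) for Slc7a11 and chr8:107403216-107403455 (minus strand) for Nqo1. Capitals mark a match, and one on the opposite strand reads as its reverse complement.
Srxn1: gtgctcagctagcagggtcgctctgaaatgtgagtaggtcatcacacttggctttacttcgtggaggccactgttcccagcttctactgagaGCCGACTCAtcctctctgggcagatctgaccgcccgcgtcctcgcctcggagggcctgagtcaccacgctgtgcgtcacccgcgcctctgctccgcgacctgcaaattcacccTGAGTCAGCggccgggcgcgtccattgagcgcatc
Slc7a11: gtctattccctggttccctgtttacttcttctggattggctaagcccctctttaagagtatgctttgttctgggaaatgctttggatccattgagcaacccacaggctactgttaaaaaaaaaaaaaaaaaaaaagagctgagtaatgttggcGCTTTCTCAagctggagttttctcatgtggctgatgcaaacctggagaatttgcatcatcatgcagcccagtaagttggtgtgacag
Nqo1: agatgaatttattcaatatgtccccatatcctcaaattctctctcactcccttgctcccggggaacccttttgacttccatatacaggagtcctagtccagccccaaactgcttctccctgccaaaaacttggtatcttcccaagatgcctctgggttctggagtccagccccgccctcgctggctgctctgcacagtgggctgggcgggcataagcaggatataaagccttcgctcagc
The Srxn1 matches shown lie at -158 to -150 and at -45 to -37 from the start, and another, TGACCTAGC on the opposite strand, lies at 28 to 36 after it. Slc7a11 had 1 match, at -97 to -89 on the opposite strand. The RNA of Slc7a11 was lower in SRF eyes and that of Srxn1 higher. A match is a run of letters and does not show binding. Bases beyond the stretch searched were not examined, so a gene without a match may hold an element further away.

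Across the 10 genes the response in SRF eyes was split. Hmox1 and Srxn1 were higher in every SRF mouse than in every control mouse, while Slc7a11, Nqo1, Sod2 and Cat were lower in every SRF mouse. The other 4 genes, Nfe2l2, Txnrd1, Gclc and Gclm, overlapped between the groups. None of the 10 was called by edgeR or by DESeq2, against backgrounds of 0% and 1.14% of all tested genes, and the smallest adjusted p of any gene was 0.0504 with edgeR. At an unadjusted p under 0.05, edgeR gave 3 of 10 members (30%) against 7.01% of all genes, with 2 higher (background 4.16%) and 1 lower (background 2.85%). DESeq2 gave 5 at that mark, against 7.23% of all genes. The groups did not overlap for 6 of 10 members against 13.1% of all genes, with 2 higher (background 6.71%) and 4 lower (background 6.43%). The median log2 fold change of the members was -0.15, against 0.00 over all tested genes, with 3 members above 0 and 7 below. That member median was -0.23 without control mouse 1, -0.090 without SRF mouse 3 and -0.07 on the FPKM scale. The median over all tested genes was 0.02, 0.00 and 0.05 in these settings. In whole tissue, fewer cells of a type and less RNA per cell cannot be told apart.

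**Figure D1:**
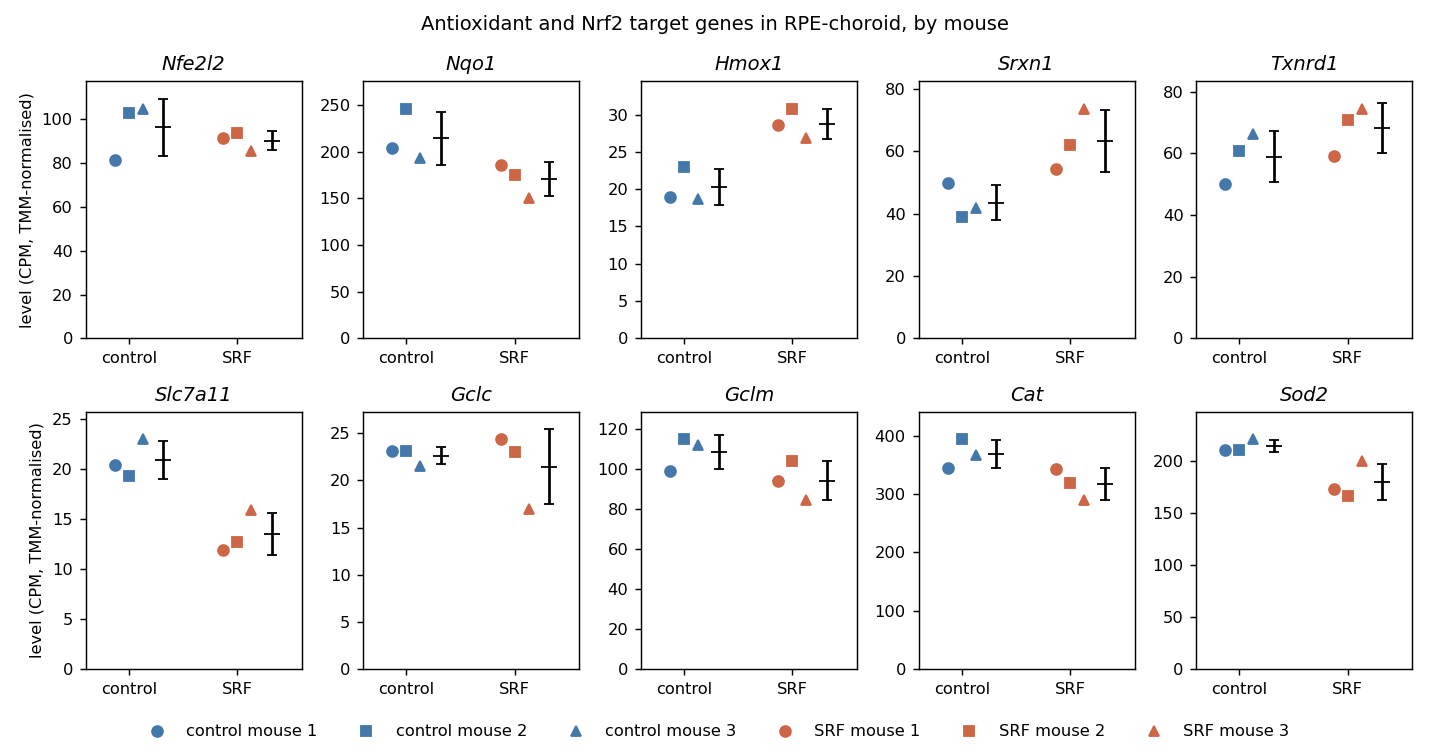
Level of each of the 10 genes (y axis, CPM after TMM scaling, starting at 0) in 3 control and 3 SRF mice, 1 point per mouse, with the mean and SD of each group as a bar; mouse numbers only name the animals. The Hmox1 points of SRF mice, 26.8 to 30.8 CPM, lie above the control points, 18.7 to 23.0 CPM, and those of Slc7a11, 11.9 to 15.9 CPM, lie below 19.3 to 22.9 CPM.

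Nfe2l2 (ENSMUSG00000015839, chr2:75675513-75704641, minus strand, GRCm38), the regulator itself, was at 81.4, 103 and 105 CPM in control mice 1 to 3 and at 91.4, 93.9 and 85.4 CPM in SRF mice 1 to 3. All 3 SRF values lay above control mouse 1, 1 of the libraries high in retinal RNA, and below control mice 2 and 3. The log2 fold change was -0.10 (SE 0.13, 95% interval -0.40 to 0.21, adjusted p = 0.9999 by edgeR). It was -0.20 without control mouse 1 and -0.03 without control mouse 3. Nrf2 is controlled largely by protein stability, which RNA counts do not measure.

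Nqo1 (ENSMUSG00000003849, chr8:107388225-107403206, minus strand), which reduces quinones to hydroquinones with NAD(P)H, was at 204, 246 and 193 CPM in control mice and at 186, 175 and 151 CPM in SRF mice. Every SRF mouse was below every control mouse. Its mean was 214 ± 28.1 CPM in control and 171 ± 18.0 CPM in SRF mice (SD, n = 3 each), a log2 fold change of -0.33 (SE 0.14, 95% interval -0.66 to 0.01). The adjusted p was 0.723 with edgeR and 0.575 with DESeq2. The unadjusted p was 0.0532 in edgeR. Without control mouse 2, the highest in lens genes, it was 0.201, with a log2 fold change of -0.22.

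Hmox1 (ENSMUSG00000005413, chr8:75093621-75100589, plus strand) encodes the inducible heme oxygenase, which opens the heme ring to give biliverdin, carbon monoxide and iron. It was at 19.0, 23.0 and 18.7 CPM in control mice and at 28.7, 30.8 and 26.8 CPM in SRF mice. The lowest SRF value exceeded the highest control value. The mean was 28.8 ± 1.98 CPM in SRF against 20.2 ± 2.41 CPM in control mice (SD, n = 3 each), or 142% of control, with a log2 fold change of 0.51 (SE 0.14, 95% interval 0.19 to 0.83). The unadjusted p of 0.00747 (edgeR) ranked 237 among 13454 genes, and the adjusted p was 0.421 with edgeR and 0.209 with DESeq2. Nqo1 and Hmox1, both classical Nrf2 targets, had differences of opposite sign, but the Nqo1 interval, -0.66 to 0.01, included 0. The cause of either difference was not tested.

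Srxn1 (ENSMUSG00000032802, chr2:152105516-152111376, plus strand) encodes sulfiredoxin, which restores peroxiredoxins whose active cysteine has been over-oxidised. It was at 49.8, 39.1 and 41.9 CPM in control mice and at 54.2, 62.1 and 73.7 CPM in SRF mice. The groups did not overlap, with control mouse 1 closest to the SRF values. The mean was 63.3 ± 9.82 CPM in SRF against 43.6 ± 5.57 CPM in control mice (SD, n = 3 each), or 145% of control. The log2 fold change was 0.54 (SE 0.16, 95% interval 0.16 to 0.92), with an adjusted p of 0.465 by edgeR and 0.149 by DESeq2. Its unadjusted p was 0.0119 in edgeR.

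Txnrd1 (ENSMUSG00000020250, chr10:82833951-82897712, plus strand), the cytosolic thioredoxin reductase, was at 49.95, 60.8 and 66.2 CPM in control mice and at 59.2, 70.9 and 74.6 CPM in SRF mice. The SRF mean was higher, but SRF mouse 1 lay inside the control range. The log2 fold change was 0.21 (SE 0.15, 95% interval -0.15 to 0.57, adjusted p = 0.924 by edgeR). Without control mouse 1 and SRF mouse 3, the libraries high in retinal RNA, it was 0.03.

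Slc7a11 (ENSMUSG00000027737, chr3:49892526-50443614, minus strand) encodes the cystine importer of system xc-, which supplies cysteine for glutathione. It was at 20.4, 19.3 and 22.9 CPM in control mice and at 11.9, 12.8 and 15.9 CPM in SRF mice. The highest SRF value lay below the lowest control value. The mean was 13.5 ± 2.08 CPM in SRF against 20.9 ± 1.89 CPM in control mice (SD, n = 3 each), or 64.7% of control. The log2 fold change of -0.63 (SE 0.17, 95% interval -1.02 to -0.24) was the furthest from 0 of the 10 genes. Its unadjusted p of 0.00691 in edgeR ranked 225 of 13454, and the adjusted p was 0.413 with edgeR and 0.149 with DESeq2. Without control mouse 1 and SRF mouse 3 the log2 fold change was -0.78 (adjusted p = 0.0912, edgeR), the smallest adjusted p of any member under any setting. That setting also called 153 of 13145 genes, against 0 of 13454 with all libraries.

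Gclc and Gclm encode the catalytic and modifier subunits of glutamate-cysteine ligase, the first and rate-limiting enzyme of glutathione synthesis. Gclc (ENSMUSG00000032350, chr9:77754535-77794485, plus strand) was at 23.2, 23.1 and 21.6 CPM in control mice and at 24.3, 23.1 and 16.9 CPM in SRF mice. SRF mouse 3 alone was clearly lower, and the log2 fold change was -0.08 (SE 0.17, 95% interval -0.47 to 0.31, adjusted p = 0.9999 by edgeR). Without SRF mouse 3 its sign turned, to 0.075. Gclm (ENSMUSG00000028124, chr3:122245557-122270732, plus strand) was at 98.9, 115 and 112 CPM in control mice and at 94.1, 104 and 84.4 CPM in SRF mice. SRF mouse 2 lay inside the control range, and the log2 fold change was -0.21 (SE 0.12, 95% interval -0.49 to 0.08, adjusted p = 0.860 by edgeR). Exons of Gclm overlap those of Gm6061, a pseudogene on the same strand, and of Gm17494 on the other strand, so some of its reads are uncertain. The length implied by the deposited counts and FPKM also differed up to 1.26-fold between libraries for Gclm, against at most 1.07-fold for each other member.

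Cat (ENSMUSG00000027187, chr2:103453849-103485160, minus strand) encodes catalase, which breaks down hydrogen peroxide in peroxisomes. It was at 344.4, 393.4 and 366.9 CPM in control mice and at 343.6, 319.0 and 289.6 CPM in SRF mice. The groups touched, since the highest SRF value was just below the lowest control value, and they overlapped in FPKM. The mean was 368 ± 24.5 CPM in control and 317 ± 27.0 CPM in SRF mice (SD, n = 3 each), a log2 fold change of -0.21 (SE 0.12, 95% interval -0.49 to 0.06, adjusted p = 0.828 by edgeR).

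Sod2 (ENSMUSG00000006818, chr17:13006846-13040063, plus strand) encodes the manganese superoxide dismutase of mitochondria. It was at 211.3, 210.9 and 221.2 CPM in control mice and at 173.5, 167.1 and 200.4 CPM in SRF mice. Every SRF mouse was below the narrow control range. The mean was 214 ± 5.81 CPM in control and 180 ± 17.7 CPM in SRF mice (SD, n = 3 each), a log2 fold change of -0.25 (SE 0.11, 95% interval -0.52 to 0.02), and the adjusted p was 0.752 with edgeR and 0.639 with DESeq2. The unadjusted p of 0.0631 in edgeR was 0.0213 without control mouse 1 and SRF mouse 3, where the log2 fold change was -0.35 (adjusted p = 0.218, edgeR). Over all genes, those with an unadjusted p under 0.05 rose in that setting too, from 943 of 13454 to 2316 of 13145.

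For each of the 6 genes whose groups did not overlap, the two-sided exact permutation test over mice gave p = 0.1. That is the smallest value that 3 against 3 mice allow, and groups without overlap always give it. The permutation test therefore adds nothing to the separation already described. The signs of 9 of the 10 genes held under all 19 other settings of normalization, filter, tool or left-out library, Gclc being the exception. Hmox1, Srxn1 and Slc7a11 kept an unadjusted p under 0.05 in all 19, and no member had an adjusted p under 0.05 in any.

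**Figure D2:**
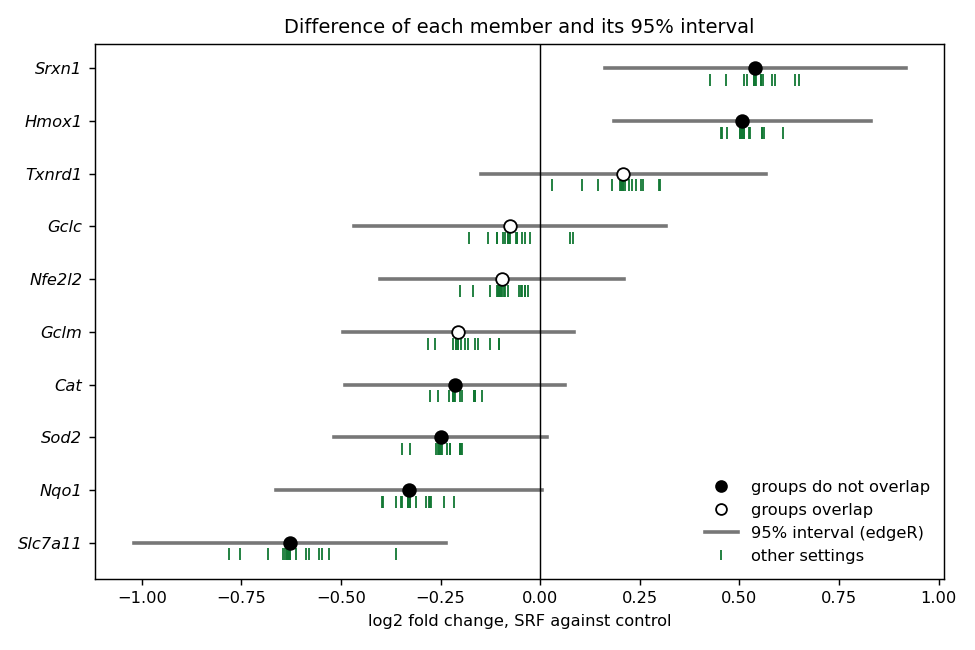
Log2 fold change of SRF against control (x axis) for each of the 10 genes, with the 95% interval from edgeR as a bar, filled points where the groups do not overlap and green ticks for the 19 other settings. The intervals of Srxn1 and Hmox1 lie above 0 and that of Slc7a11 below 0, and the other 7 include 0.

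The split between the genes can be restated as ratios inside single libraries. The ratio of Hmox1 to Slc7a11 counts was 0.931, 1.19 and 0.815 in control mice and 2.41, 2.42 and 1.69 in SRF mice. The ratio of Srxn1 to Slc7a11 counts was 2.44, 2.03 and 1.83 in control mice and 4.56, 4.87 and 4.65 in SRF mice. Both ratios were higher in each SRF mouse, and they do not depend on how libraries are scaled. Their separation follows from the levels given above, with Hmox1 and Srxn1 higher and Slc7a11 lower in every SRF mouse. The ratios are thus no further support. They were chosen after the values were seen and carry no test. The ratio of Gclm to Gclc in FPKM, between the subunits of a single enzyme, was 8.47, 9.86 and 8.47 in control mice and 7.98, 9.08 and 8.63 in SRF mice, and the groups overlapped.

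Per length, as FPKM, the members spanned a wide range. Cat (control mean 138 FPKM) and Nqo1 (135 FPKM) were the most abundant, and their ranges over the 6 libraries overlapped. Gclm followed at 57.9 FPKM, apart from its neighbours. Nfe2l2 at 38.2 FPKM and Sod2 at 36.3 FPKM overlapped each other, as did Txnrd1 at 18.3 with Srxn1 at 15.2 and Srxn1 with Hmox1 at 12.6 FPKM. Gclc at 6.48 FPKM and Slc7a11 at 2.29 FPKM were lowest, and their ranges overlapped neither each other nor those above. The 3 members with an unadjusted p under 0.05 thus came from the lower part of this order. In SRF mice the mean of Srxn1, 22.8 FPKM, was above that of Txnrd1, 21.7 FPKM, the reverse of their order in control mice, with overlapping ranges.

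Marker genes of other cells moved along with these differences. The 12 macrophage and microglia markers had a mean log2 CPM of 5.48 to 5.72 in control and 6.16 to 6.49 in SRF mice. Their summed level was 724 to 889 CPM and 1191 to 1510 CPM, and 9 of 12 were higher at an unadjusted p under 0.05 in edgeR. The 10 RPE markers had a mean log2 CPM of 10.2 to 10.3 in control and 9.68 to 10.0 in SRF mice. Their summed level was 44180 to 52407 CPM in control and 29331 to 39097 CPM in SRF mice, and 6 of 10 were lower at an unadjusted p under 0.05 in edgeR. The median log2 fold change was 0.78 for the macrophage and microglia list and -0.50 for the RPE list. The 7 choroidal fibroblast markers had a median of 0.53 and the 10 endothelial ones of 0.03. The 5 lens genes tested had a median of -2.58, with 4 of 5 lower at an unadjusted p under 0.05 in edgeR, and a summed level of 7.59 to 61.3 CPM in control and 6.01 to 10.1 CPM in SRF mice. The higher Hmox1 and Srxn1 and the lower Slc7a11, Nqo1, Sod2 and Cat stand beside these shifts, and the part of the shifts in them was not tested.

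**Figure D3:**
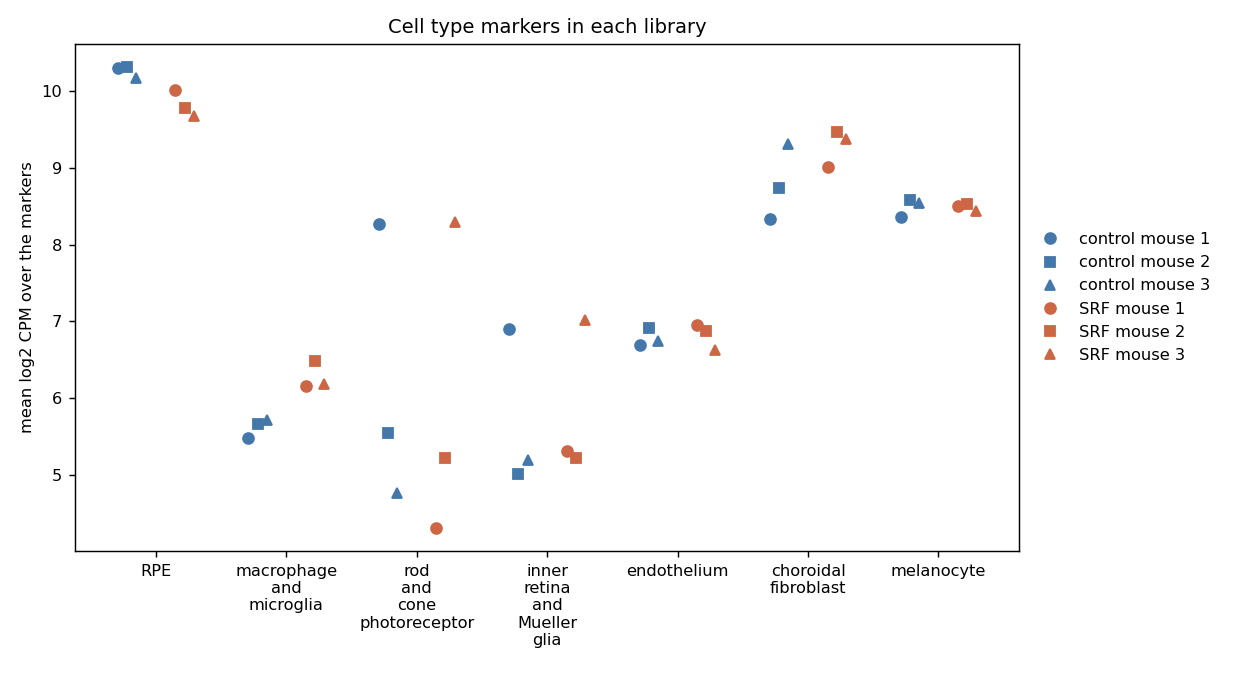
Mean log2 CPM over the marker genes of each cell type (y axis) in 3 control and 3 SRF mice, 1 point per mouse. SRF mice lie lower for RPE markers and higher for macrophage and microglia markers, while control mouse 1 and SRF mouse 3 stand apart for photoreceptor and inner retina markers.

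The differences of Hmox1, Srxn1 and Slc7a11 kept their direction without the libraries high in retinal RNA, with log2 fold changes of 0.51, 0.52 and -0.78 on 2 mice per group. Those of the other members were then -0.17 for Nfe2l2, -0.29 for Nqo1, 0.03 for Txnrd1, 0.082 for Gclc, -0.20 for Gclm, -0.20 for Cat and -0.35 for Sod2. With the photoreceptor score as a covariate, Hmox1, Srxn1 and Slc7a11 were at 0.50, 0.56 and -0.63. Without control mouse 2, the highest in lens genes, they were at 0.61, 0.47 and -0.68, and without control mouse 3 at 0.45, 0.51 and -0.55. In the other members, leaving out control mouse 2 gave -0.05 for Nfe2l2, -0.22 for Nqo1, 0.23 for Txnrd1 and -0.06 for Gclc. It gave -0.16 for Gclm, -0.16 for Cat and -0.26 for Sod2. Leaving out control mouse 3 gave -0.03 for Nfe2l2, -0.40 for Nqo1, 0.30 for Txnrd1 and -0.11 for Gclc. It gave -0.18 for Gclm, -0.22 for Cat and -0.23 for Sod2. Between the pair of high libraries themselves, Hmox1 was at 19.0 CPM in control mouse 1 and 26.8 in SRF mouse 3, Srxn1 at 49.8 and 73.7, and Slc7a11 at 20.4 and 15.9, the same directions.

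The rest of the pathway was described with 149 further genes in 9 lists, of which 140 passed the filter. None was called by edgeR (background 0%), and DESeq2 called 1, Chac2 (background 1.14%). At an unadjusted p under 0.05 there were 4 higher and 3 lower, or 5% of the 140 against 7.01% of all genes. The groups did not overlap for 21 (15.0%, against 13.1% of all genes), 10 higher and 11 lower. The median log2 fold change was 0.00, with 70 genes above and 70 below 0. Over these lists, the share of genes past either mark was near the background. The count of 7 depended on single libraries, as did that over all genes: it was 15 without SRF mouse 3 (1728 over all genes), 3 without control mouse 2 (552) and 3 without SRF mouse 2 (439).

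Of the 19 genes of glutathione synthesis and recycling, 2 were higher and 1 lower at an unadjusted p under 0.05 in edgeR, against 4.16% and 2.85% of all genes. Chac2, which cleaves glutathione inside the cell, had 34.2 ± 3.11 CPM in control mice and 21.8 ± 0.247 CPM in SRF mice (SD, n = 3 each), a log2 fold change of -0.65 (SE 0.12), with an adjusted p of 0.239 by edgeR and 0.00471 by DESeq2. Anpep, a membrane aminopeptidase that can split the dipeptide left from extracellular glutathione and is also found on myeloid cells, was at 17.8 ± 1.80 and 27.4 ± 3.61 CPM, a difference of 0.62 (SE 0.15, adjusted p = 0.386 by edgeR). Oplah, which recycles oxoproline to glutamate, was at 34.4 ± 2.01 and 42.0 ± 1.503 CPM, a difference of 0.29 (SE 0.11). Gsr, which reduces oxidised glutathione, was at 49.7 ± 2.94 and 55.1 ± 1.80 CPM, and its groups did not overlap.

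Of 21 glutathione transferases, which join glutathione to electrophiles, 2 were lower and none higher at an unadjusted p under 0.05 in edgeR, or 9.52% against 7.01% of all genes, and the list median was -0.08. The groups did not overlap for 5 of the 21, against 13.1% of all genes. Gstt3 had 97.4 ± 8.32 CPM in control mice and 76.3 ± 1.58 CPM in SRF mice, Gstt2 at 155 ± 18.1 and 115 ± 23.1 CPM, and Gstt1, which missed that mark, at 106 ± 6.37 and 91.0 ± 3.63 CPM. In these theta-class genes every SRF mouse was below every control mouse. Gstm1, of the mu class, was at 384 ± 47.8 and 465 ± 40.7 CPM with the SRF mice above. Close paralogs share reads in this family, so how reads divide between its members is uncertain.

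None of the 19 thioredoxin and peroxiredoxin genes had an unadjusted p under 0.05 in edgeR, against 7.01% of all genes. The groups did not overlap for 3 of them (15.8%, against 13.1% of all genes). Msra, a methionine sulfoxide reductase, had 30.5 ± 1.15 CPM in control mice and 25.6 ± 2.45 CPM in SRF mice, Sesn3, a sestrin, at 155 ± 8.67 and 130 ± 16.4 CPM, and Txn2, the mitochondrial thioredoxin, at 246 ± 16.7 and 219 ± 11.8 CPM. Their SRF mice were all below their control mice. Sod1, the cytosolic superoxide dismutase, was at 553 ± 69.6 and 425 ± 71.2 CPM (log2 fold change -0.38, SE 0.16). It was the only 1 of 10 genes of superoxide and peroxide removal whose groups did not overlap (10%, against 13.1% of all genes). Me1, malic enzyme and a source of NADPH, was at 180 ± 12.6 and 153 ± 7.14 CPM, also without overlap.

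Of the 14 genes of Nrf2 regulation none had an unadjusted p under 0.05 in edgeR, against 7.01% of all genes. The groups did not overlap for 2 of them (14.3%, against 13.1% of all genes). Mafg, a small Maf partner of Nrf2, had 48.8 ± 1.67 CPM in control mice and 57.1 ± 5.15 CPM in SRF mice, and Bach2, a relative of the repressor Bach1, at 5.39 ± 0.380 and 7.02 ± 1.28 CPM, both without overlap. Keap1, given here after its values were seen, was at 70.4 ± 4.12 and 69.0 ± 2.41 CPM, and Slc3a2, the heavy chain that carries Slc7a11 to the membrane and likewise added after its values were seen, at 428 ± 70.6 and 429 ± 37.7 CPM. The means of Slc3a2 thus lay close together where those of its partner Slc7a11 did not.

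Among 21 genes of quinone, carbonyl and xenobiotic metabolism, Akr1b8, an aldo-keto reductase, was the only gene with an unadjusted p under 0.05 in edgeR. That was 4.76% of the list, against 7.01% of all genes. Akr1b8 had 6.82 ± 1.20 CPM in control mice and 10.1 ± 1.27 CPM in SRF mice, a log2 fold change of 0.56 (SE 0.22), with close paralogs that may share its reads. Cyb5r1, a cytochrome b5 reductase, was at 34.3 ± 0.306 and 38.2 ± 2.44 CPM with no overlap. None of the 11 genes of heme breakdown and iron storage passed that mark (7.01% of all genes), and none had groups apart (13.1% of all genes). Of these, 9 were above 0 and 2 below, with a list median of 0.13. Hmox1, the enzyme at the head of that route, is counted with the members. Among 15 other reported Nrf2 targets, Rxra, a nuclear receptor partner, was at 21.8 ± 1.44 and 28.2 ± 3.61 CPM (log2 fold change 0.37, SE 0.14), and Slc6a9, a glycine transporter, at 213 ± 16.9 and 179 ± 11.4 CPM. The NADPH list of 10 genes had a median of -0.03.

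**Figure D4:**
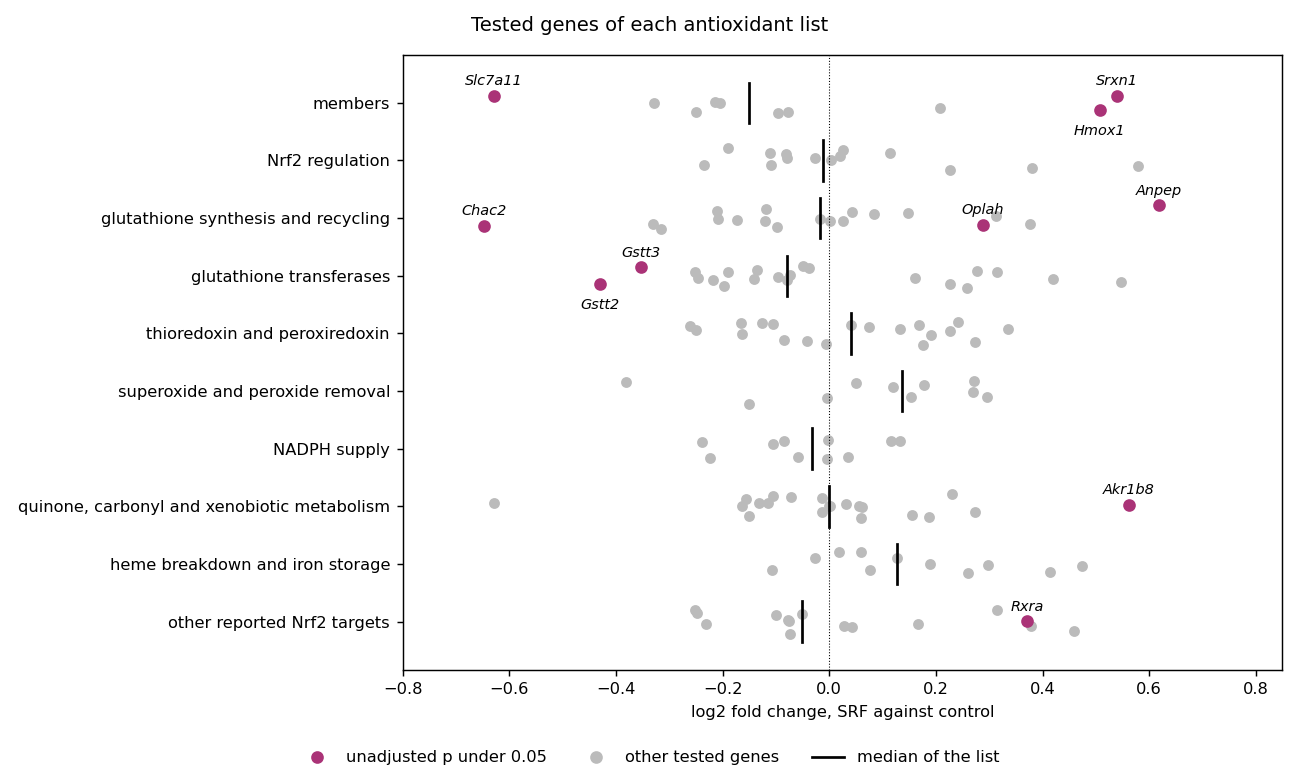
Log2 fold change of SRF against control (x axis) for each tested gene of the 10 members and of 9 further antioxidant lists, with a black line at each list's median and coloured points at an unadjusted p under 0.05 in edgeR. The list medians lie between -0.15, for the members, and 0.14, for superoxide and peroxide removal.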

How the data were processed

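RPE-choroid libraries of 3 control and 3 SRF mice were compared. Per the study's methods, reads were filtered with FASTP and quantified with StringTie. The authors deposited, for each mouse, the raw read count and the FPKM (fragments scaled to transcript length and library size) of 15663 genes, and the submitters' processing notes name StringTie and DESeq2. The aligner, genome build and strand setting are not given in the sources used here. All 15663 genes had a count of at least 1 in each library, so the list was filtered before deposit, and 15659 identifiers were found in GENCODE M21 (GRCm38), from which gene positions were taken.

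Groups came from the labels. The 13454 genes counted over 50 times in 2 or more libraries were tested with edgeR 4.0.16 (TMM scaling, quasi-likelihood test with legacy settings, group as the only term, R 4.3.3), with Benjamini-Hochberg adjustment. DESeq2 1.42.0, limma 3.58.1 (voom, or log2(FPKM + 0.1) and log2(FPKM + 1)), other scalings and filters, and fits leaving out libraries were alternatives. Standard errors and 95% intervals came from the edgeR fit and its moderated dispersion. The script was tested on simulated data. A count of 3 corresponds to 0.123 to 0.22 CPM at these depths, and the median SE of a log2 fold change over tested genes was 0.19. The labels number the 3 libraries of a group as replicates and give no batch. Per the study's methods, 3 SRF mice and 3 control mice were used, so same-numbered mice of the groups are different animals. Libraries of a group differed by more than sampling noise.

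The members and lists were chosen with earlier results of these data known, so no set test or list-wise adjustment was made. Named genes were all members, and from each list up to 4 genes with the smallest unadjusted p among those whose groups did not overlap, plus any called by edgeR or DESeq2. Nnt was left out, since 2 identifiers share its symbol.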

Additional observations from a re-analysis of the deposited data

How the results depend on the processing

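Of the member results, the sign turned only for Gclc, whose log2 fold change was -0.08 with all libraries, 0.082 without control mouse 1 and SRF mouse 3 (the libraries high in photoreceptor RNA), and -0.18 to 0.075 when each mouse was left out in turn, above 0 only without SRF mouse 3. The number of members with an unadjusted p under 0.05, 3 in the report, was 5 with DESeq2 and 5 with the replicate block, and 3 to 4 when each mouse was left out. Members whose groups did not overlap, 6 in the report, numbered 5 to 8. The 8 came from the fits without control mouse 1, alone or together with SRF mouse 3. Groups of fewer mice separate more easily, and the share over all genes was not computed for these settings. The 8 is therefore not a stronger result than the 6. Over all genes, the number called was 0 with edgeR and 153 with DESeq2, 2 with either FPKM pseudocount, 153 without both libraries high in photoreceptor RNA, and 1 with voom, with edgeR's newer settings (legacy off), with upper quartile factors, with library totals alone, without a count filter, with filterByExpr and with the photoreceptor score as covariate. Leaving out each mouse in turn gave 0 to 5 called, the 5 without control mouse 1. The number with an unadjusted p under 0.05, 943 in the report, was 2316 without both libraries, and 439 (without SRF mouse 2) to 1728 (without SRF mouse 3) when each was left out. For the 140 pathway genes it was 7, 18 without both libraries, and 3 (without control mouse 2 or SRF mouse 2) to 15 (without SRF mouse 3). The split of the 943 was 560 higher and 383 lower, against 724 and 259 with library totals alone, and 753 and 240 or 752 and 238 on the FPKM scale; the median of all genes moved by at most 0.05. Deviations from the group mean correlated at -0.48, 0.47 and -0.31 between same-numbered mice. With 3 mice per group, and a library high in photoreceptor RNA in each, these values cannot decide whether the numbers pair the libraries. The replicate block gave 0 genes called, 1206 with an unadjusted p under 0.05, 8 pathway genes and a member median of -0.15. That median was -0.23 (without control mouse 1) to -0.090 (without SRF mouse 3) when each mouse was left out, and -0.07 on the FPKM scale. The median over all tested genes was 0.05 on the FPKM scale. On log2(FPKM + 1) Slc7a11 was -0.36, since a pseudocount of 1 shrinks differences of low genes. The cause of these changes was not tested. With 3 mice per group the 95% intervals of 7 members include 0, so differences of that size were not resolved.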
